A study of Homo sapiens with 32 samples.

Results

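The genes described here are 10 chaperones of the heat shock response: HSPA1A, HSPA1B, HSPA8, HSPH1, HSP90AA1, HSP90AB1, DNAJB1, HSPB1, HSPD1 and HSPE1. They were taken by name, as genes driven by heat shock factor 1 (HSF1), from a table of 35238 genes, and all 10 were present and passed the filter on low values that left 17011 genes. The table holds RNA sequencing of 32 libraries from human endometrial cancer cell lines, with 2 replicates in each of 16 groups. The groups are 4 lines under 4 treatments for 24 h. Ishikawa is wild-type for CTNNB1, the gene of beta-catenin. Ishikawa-S33Y, a derivative of it with a mutated CTNNB1, and the lines SNGM and HEC265 are CTNNB1-mutated, and whether Ishikawa-S33Y is 1 clone is not given in the sources used here. The treatments were vehicle (0.1% DMSO), the taxane paclitaxel, SM08502, which is an inhibitor of the CDC-like kinases (CLK), and paclitaxel with SM08502, called the combination below. Paclitaxel was given at 11 nM to Ishikawa, 6 nM to Ishikawa-S33Y, 11.7 nM to SNGM and 5.6 nM to HEC265. SM08502 was given at 80, 85, 350.7 and 149 nM in the same order of lines, so the dose cannot be told apart from the line. The labels call the cells plated in duplicate, so p-values measure the spread between these libraries, which may be partly technical.

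Chaperones bind unfolded proteins and help them fold, and cells under heat or other protein-damaging stress make more of them. HSF1 is held inactive by HSP70 and HSP90 proteins, and when these are occupied by unfolded proteins it forms trimers that bind heat shock elements, which are inverted repeats of the unit GAA, and switches on the chaperone genes. HSPA1A and HSPA1B encode the same inducible HSP70 protein, HSPA8 encodes the constitutive HSP70, HSPH1 and DNAJB1 encode cofactors of HSP70, HSP90AA1 and HSP90AB1 encode the cytosolic HSP90 proteins, HSPB1 encodes the small chaperone HSP27, and HSPD1 and HSPE1 encode the mitochondrial HSP60 and HSP10. CLKs phosphorylate the SR proteins that steer splicing.

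The bases before transcription starts are shown first, because they hold the element through which HSF1 is known to act on these genes. In 16 RefSeq promoter windows of 300 bases around the starts of the 10 genes (GRCh38.p14), the paired units GAANNTTC or TTCNNGAA, which read the same on both strands, were searched for. Of the 16 windows, 9 (56.2%) held at least 1 such pair, against 13.5% of 35116 windows of that length over all genes. The 3-unit form, GAANNTTCNNGAA on 1 strand and TTCNNGAANNTTC on the other, contains the 2-unit form and was found in 4 windows (25%), against 0.49% of all. By gene, 8 of 10 held a pair of units and 4 of 10 held 3 units, against 16.2% and 0.608% of 27305 genes. These letters were not in the windows of HSPH1 and HSPE1. A match is a description of the letters and was not tested as a site. The stretches below run 5′ to 3′ on the strand of the gene, lie upstream of an annotated start, and have the GAA and TTC units of the matches in capitals.
HSPA1A (chr6:31815417-31815464, plus strand): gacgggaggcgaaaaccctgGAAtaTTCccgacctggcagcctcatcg
HSPA1B (chr6:31827613-31827660, plus strand): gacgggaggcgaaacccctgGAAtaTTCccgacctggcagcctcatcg
HSPA8 (chr11:123062159-123062386, minus strand): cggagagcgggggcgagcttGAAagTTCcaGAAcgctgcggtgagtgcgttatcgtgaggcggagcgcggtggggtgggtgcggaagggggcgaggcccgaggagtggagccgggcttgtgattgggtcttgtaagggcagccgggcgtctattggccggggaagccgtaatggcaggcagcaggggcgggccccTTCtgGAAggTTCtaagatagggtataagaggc
HSP90AA1 (chr14:102087085-102087152, minus strand): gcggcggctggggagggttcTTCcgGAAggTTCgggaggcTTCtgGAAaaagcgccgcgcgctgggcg
HSP90AB1 (chr6:44247758-44247863, plus strand): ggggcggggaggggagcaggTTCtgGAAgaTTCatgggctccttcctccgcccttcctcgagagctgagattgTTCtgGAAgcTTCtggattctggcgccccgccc
DNAJB1 (chr19:14518417-14518494, minus strand): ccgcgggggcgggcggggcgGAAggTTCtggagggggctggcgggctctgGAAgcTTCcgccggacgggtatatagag
HSPB1 (chr7:76302471-76302518, plus strand): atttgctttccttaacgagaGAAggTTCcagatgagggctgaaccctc
HSPD1 (chr2:197500048-197500090, minus strand): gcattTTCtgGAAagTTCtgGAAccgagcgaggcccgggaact
In HSPA1A and HSPA1B the pair of units starts 106 and 105 bases before the start, and the 250 bases before the starts of these 2 genes were 93.6% identical. HSPA8, HSP90AA1, HSP90AB1 and HSPD1 are the genes with at least 3 units in a row. DNAJB1 has 2 separate pairs in the stretch shown and 1 more just downstream of another annotated start, and HSPB1 has 1 pair. For HSP90AB1, HSPD1, DNAJB1, HSPA8 and HSP90AA1 the stretch lies inside the span of the gene, because RefSeq lists longer transcripts that start further upstream.

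Depth, recovered as whole reads from the deposited values, was 13026400 to 34127623 reads in all libraries but replicate 2 of the combination in Ishikawa-S33Y (2991041 reads) and in SNGM (1607038 reads). In the latter 3 reads equal 1.87 CPM (reads per 1000000 counted). All 6 epithelial markers were above 10 CPM on average in every line. Summed stromal markers were 714 to 1165 CPM in Ishikawa-S33Y and 31.4 to 194 CPM in Ishikawa, where COL1A1 was the only one above 10 CPM, and at most 9.02 CPM in SNGM and 7.75 CPM in HEC265. Summed immune markers were 5.24 to 52.0 CPM and summed endothelial markers 1.15 to 10.6 CPM. A score was taken as the difference in mean log2 level between genes with long transcripts and genes of ribosomal proteins, and is lower where long transcripts are low. This length score was -2.16 and -3.55 in the 2 paclitaxel libraries of Ishikawa, -2.78 and -3.59 in its 2 SM08502 libraries, and -1.03 and -1.14 in the 2 vehicle libraries of HEC265.

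The 2 libraries of a group differed most in the paclitaxel and SM08502 groups of Ishikawa. Over the 10 chaperones, the log2 differences between replicates had a root mean square of 0.769 for paclitaxel and 0.510 for SM08502 in that line, 0.412 for the combination in SNGM and 0.354 for the combination in Ishikawa-S33Y, which each hold a shallow library, and 0.0460 to 0.266 in the other 12 groups. HSPA1B shows it: in Ishikawa with paclitaxel it was 235.5 CPM in replicate 1 and 104.5 CPM in replicate 2. HSPE1 went the other way in the same libraries, with 67.7 and 114.2 CPM. The plot of the difference between replicates shows that the chaperones did not differ by a common factor. The labels give an RNA input of 350 ng for Ishikawa and 500 ng for the other lines, so input cannot be told apart from the line either. The model used for every test below shares 1 estimate of spread over all 32 libraries, and results that turn on this are given with and without it.

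**Figure D1:**
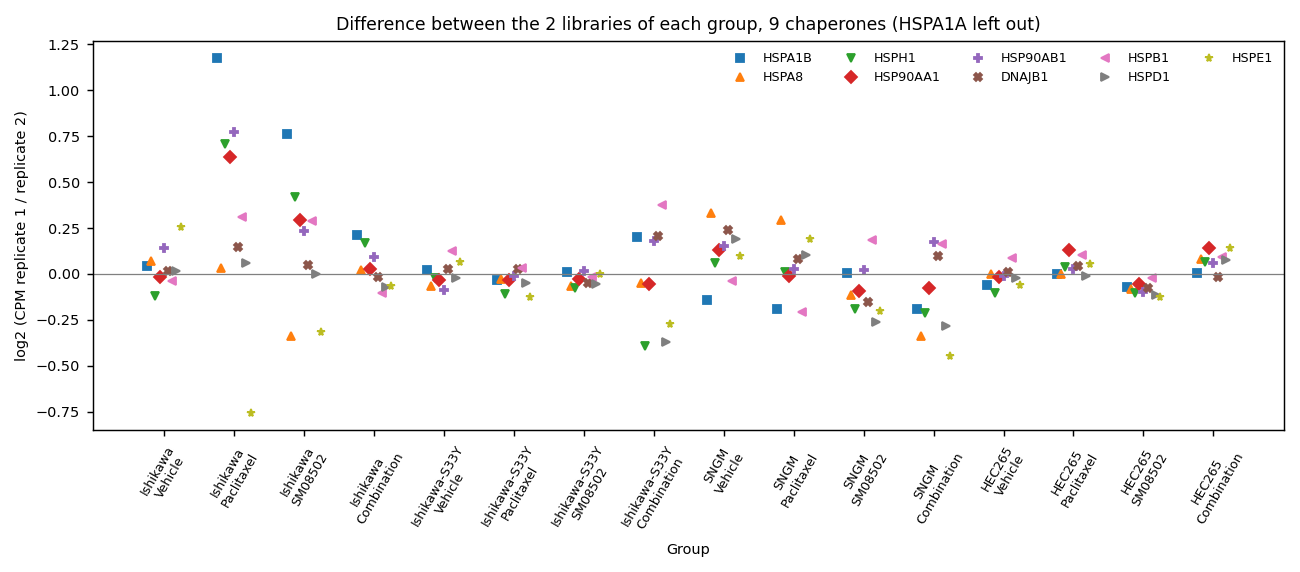
Log2 ratio of the CPM of replicate 1 to that of replicate 2 (vertical axis) in each of 16 groups (horizontal axis) for 9 chaperones, 1 symbol a gene. Paclitaxel in Ishikawa spreads wide, and the HEC265 groups lie close to 0.

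The chaperones on vehicle give the basal state of each line. HEC265 held the highest mean level of 9 of the 10 genes, HSPA1A being the exception, and SNGM the lowest level of HSPA1B. The 10 genes together took 8785 and 8857 CPM in HEC265 on vehicle, 6202 and 5423 in SNGM, 5682 and 5499 in Ishikawa, and 5052 and 5186 in its S33Y derivative. Comparing each of the 6 pairs of lines for 10 genes, 38 of 60 differences passed the test (limma on log2(CPM + 1), Benjamini-Hochberg adjusted p under 0.05 over 17011 genes). Differences between the lines are common across all genes, so these counts are to be read against the share of all genes that passed. Ishikawa-S33Y against Ishikawa had 3 of 10 chaperones called where 48.3% of all genes were called, and SNGM against Ishikawa had 7 where 66.8% were. HEC265 against Ishikawa had 6 with 63.3% of all genes, SNGM against Ishikawa-S33Y 6 with 60.8%, HEC265 against Ishikawa-S33Y 8 with 58%, and HEC265 against SNGM 8 with 54.9%. The direction in HEC265 was 1-sided: 6, 8 and 8 chaperones were higher than in Ishikawa, Ishikawa-S33Y and SNGM, and 0 were lower in each. Over all genes, 39.4%, 45.9% and 47.3% of those called in these comparisons were higher, and 52.7%, 56.9% and 52.3% after median re-centring, where 7, 8 and 9 chaperones were higher and 0 lower. The median log2 difference of the 10 genes was 0.58, 0.84 and 0.83 in these comparisons, against -0.17, -0.08 and -0.04 over all genes tested. Against Ishikawa, the calls of HSPA1B, HSP90AB1 and HSPB1 in HEC265 were lost with the length score as a covariate. Beside 1 mean for each group, the slope of this covariate comes only from differences between replicates, here and below. On vehicle the score was -3.28 and -2.92 in Ishikawa, against -1.03 and -1.14 in HEC265. The score thus cannot be told apart from the line in these comparisons.

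**Figure D2:**
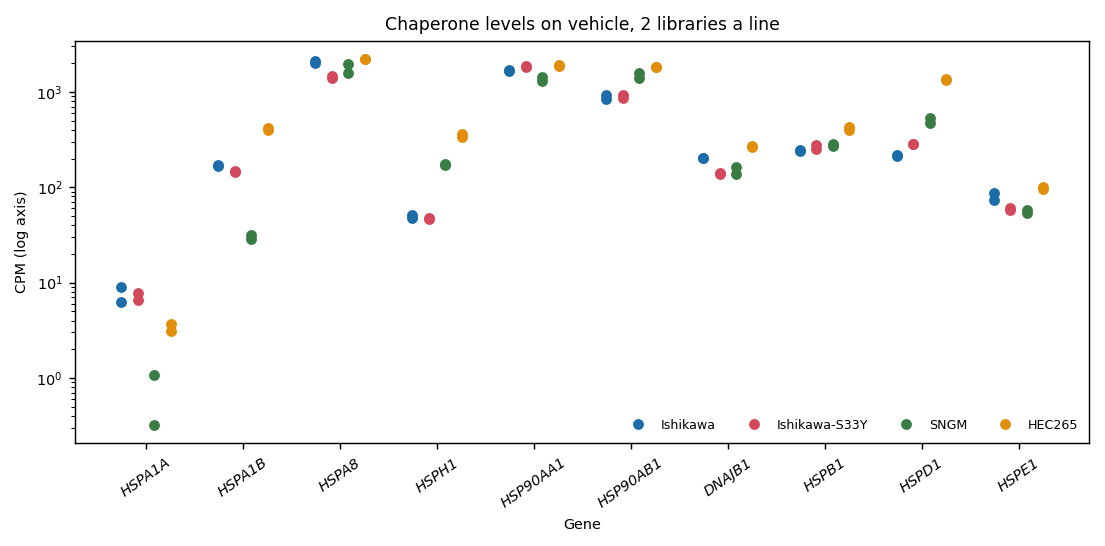
CPM on a log axis (vertical) of each chaperone (horizontal) in the 2 vehicle libraries of each line, 1 point a library. HEC265 points lie highest for 9 of 10 genes, all but HSPA1A, and SNGM points lie lowest for HSPA1B; levels of different genes are not to be compared, since CPM is not set per length.

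Among the HSP70 genes, HSPA1B varied most between lines. It was 400.6 and 417.0 CPM in HEC265, 171.7 and 166.7 in Ishikawa, 147.4 and 145.1 in the S33Y line, and 28.5 and 31.4 in SNGM. No library of 1 line overlapped another line. HEC265 stood 13.3-fold above SNGM on the scale of CPM + 1, a log2 difference of 3.73 (SE 0.23, limma, adjusted p = 8.37e-12, n = 2 and 2). Ishikawa and Ishikawa-S33Y differed by -0.21 (adjusted p = 0.496), which did not pass (95% interval -0.69 to 0.28), whereas SNGM was below both and HEC265 above both. With the length score as a covariate the HSPA1B difference between HEC265 and Ishikawa was lost (0.04, limma, adjusted p = 0.915). HSPA8, the constitutive HSP70, was 2212 and 2211 CPM in HEC265, 2095 and 1994 in Ishikawa, 1978 and 1569 in SNGM, and 1390 and 1456 in Ishikawa-S33Y. Only Ishikawa-S33Y against Ishikawa (-0.52, adjusted p = 0.00436) and against HEC265 passed among its 6 pairs, and the former was lost with the length score as a covariate (-0.28, adjusted p = 0.186). SNGM held the lowest HSPA1B, and none of its 3 HSPA8 differences passed.

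HSPH1, an HSP110 protein that exchanges the nucleotide of HSP70, stood at 3 levels over the lines. From the highest, it was 338.4 and 363.9 CPM in HEC265, 176.8 and 169.9 in SNGM, 47.3 and 51.4 in Ishikawa, and 46.8 and 47.5 in its S33Y derivative. Ishikawa and Ishikawa-S33Y overlapped, and the other neighbours did not. HEC265 was 7.00-fold above Ishikawa (log2 difference 2.81, SE 0.16, limma, adjusted p = 1.87e-12) and 2.02-fold above SNGM. DNAJB1, the J-domain protein that hands unfolded proteins to HSP70, was 268.8 and 267.2 CPM in HEC265, 202.7 and 200.6 in Ishikawa, 162.3 and 137.4 in SNGM, and 140.0 and 137.6 in Ishikawa-S33Y. It was lower in Ishikawa-S33Y than in Ishikawa by -0.54 (SE 0.09, adjusted p = 5.13e-05). SNGM and Ishikawa-S33Y, neighbours in this order, gave a difference of 0.11 that did not pass (adjusted p = 0.328).

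The HSP90 genes followed different orders. HSP90AB1, the constitutive form, was 1824 and 1837 CPM in HEC265 and 1563 and 1406 in SNGM, against 936.2 and 847.4 in Ishikawa and 863.3 and 918.6 in Ishikawa-S33Y. HEC265 and SNGM each lay above both Ishikawa lines (adjusted p at most 4.68e-04), and the difference between them did not pass (0.30, adjusted p = 0.116). With the length score as a covariate the differences from Ishikawa were lost, at 0.41 for HEC265 (limma, adjusted p = 0.131) and 0.02 for SNGM (adjusted p = 0.959). HSP90AA1, the inducible form, was 1889 and 1908 CPM in HEC265, 1837 and 1876 in Ishikawa-S33Y, 1675 and 1697 in Ishikawa, and 1430 and 1308 in SNGM. It was lower in SNGM than in HEC265 and Ishikawa-S33Y by 0.47 and 0.44 on the log2 scale (adjusted p = 0.0101 and 0.0141), and its other pairs did not pass. HSPB1, which keeps unfolded proteins from aggregating without using ATP, was 424.0 and 398.5 CPM in HEC265 and between 241.0 and 280.9 CPM in all 6 vehicle libraries of the other lines. HEC265 was above each of them, by 0.57 to 0.75 log2 (adjusted p at most 6.19e-04), and differences among the others did not pass. Its HSPB1 difference from Ishikawa was lost with the length score as a covariate (0.36, limma, adjusted p = 0.121).

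The mitochondrial pair did not keep a common ratio. HSPD1, the barrel-forming HSP60, was 1328 and 1350 CPM in HEC265, 532.2 and 466.2 in SNGM, 283.3 and 287.3 in Ishikawa-S33Y, and 217.8 and 215.1 in Ishikawa. Every line differed from every other by the test, and HEC265 was 6.16-fold above Ishikawa (log2 difference 2.62, SE 0.12, limma, adjusted p = 1.41e-14). HSPE1, the co-chaperonin that caps HSP60 and is transcribed from the opposite strand beside it on chromosome 2, was 96.6 and 100.9 CPM in HEC265, 87.4 and 73.2 in Ishikawa, 60.5 and 57.9 in the S33Y line, and 57.2 and 53.4 in SNGM. HEC265 exceeded SNGM and Ishikawa-S33Y by 0.83 and 0.73 log2, and Ishikawa by 0.30 (adjusted p = 0.145). The lower HSPE1 in SNGM than in Ishikawa (-0.53, adjusted p = 0.0123) turned to 0.55 with the length score as a covariate. RefSeq lists 28 pseudogenes named after HSPE1, 22 after HSPD1, 20 after HSPA8, and 2 each after DNAJB1 and HSPB1. HSPE1 overlaps the read-through gene HSPE1-MOB4, DNAJB1 overlaps TECR and MIR639, and HSP90AA1 overlaps WDR20. HSPA8 and HSPD1 overlap small nucleolar RNA genes. How reads were shared with all these bears on the counts of the chaperones and was not tested.

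HSPA1A and HSPA1B are near-identical copies, and the counting gave HSPA1B most of their reads. HSPA1A took 0% to 7.39% of the reads assigned to either gene, with the highest share in the shallow combination library of Ishikawa-S33Y (41 reads of HSPA1A and 514 of HSPA1B, exact 95% binomial interval 5.35% to 9.89%, counting error only). In HEC265 with SM08502 the shares were 0.40% and 0.50%. HSPA1A was listed with 0 reads in the shallow SNGM combination library, where 3 reads equal 1.87 CPM, so a level up to that is allowed there. It was 8.94 and 6.22 CPM in Ishikawa on vehicle, 7.69 and 6.58 in Ishikawa-S33Y, 3.07 and 3.71 in HEC265, and 1.09 and 0.32 in SNGM. How the authors' counting split these copies is uncertain, so the summed pair was tested too: it was 404 and 421 CPM in HEC265 and 29.6 and 31.7 CPM in SNGM on vehicle, 13.1-fold apart (adjusted p = 1.20e-11).

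**Figure D3:**
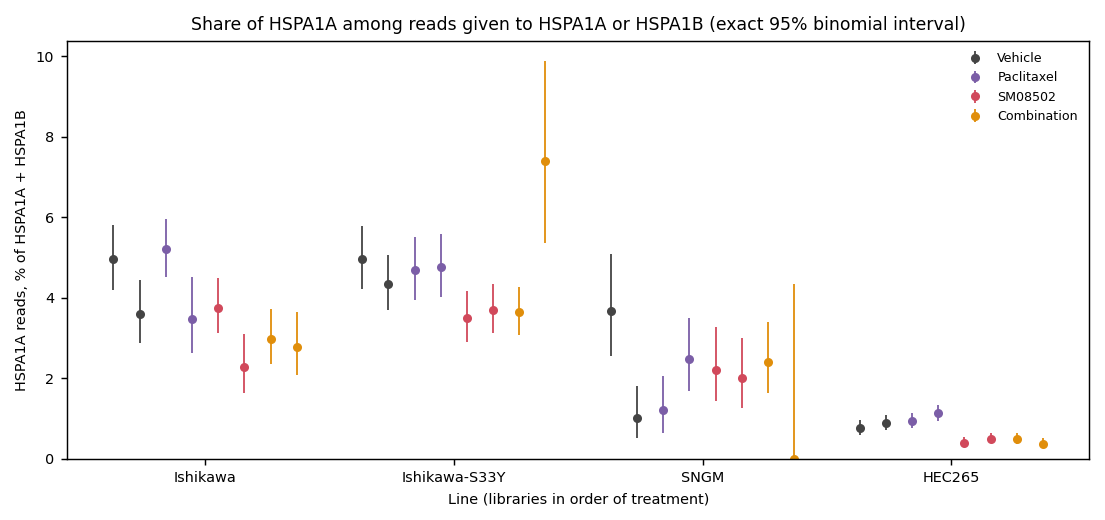
Reads of HSPA1A as a percentage of the reads of HSPA1A and HSPA1B (vertical axis) in each library, grouped by line and coloured by treatment, with exact 95% binomial intervals. The share is at most 7.39%, and at most 1.12% in HEC265.

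Whether CLK inhibition moved the chaperones was measured as SM08502 against vehicle in each line. With the spread shared over all lines 2 of 40 gene-by-line changes passed, and with the spread taken from each line alone 11 did. HSPB1 was lower in Ishikawa and DNAJB1 was higher in HEC265. In Ishikawa 0 chaperones were higher and 1 was lower, where 6.5% of all genes were higher and 8.68% lower. In Ishikawa-S33Y 0 were called where 18.5% of all genes were higher and 10.6% lower, and in SNGM 0 were called where 3.8% were higher and 4.06% lower. In HEC265 1 was higher and 0 lower, where 9.27% of all genes were higher and 5.39% lower. The median log2 change of the 10 chaperones was -0.25 for Ishikawa, -0.06 for the S33Y line, 0.08 for SNGM and 0.27 for HEC265, against 0.00, 0.11, 0 and 0.07 over all genes. As the mean over 4 lines, 0 of 10 were called and 0 had an unadjusted p under 0.05 (limma), where 22.6% of all genes were higher and 15.8% lower. With scaling by trimmed means of the recovered reads (TMM) before limma, an alternative added after the data were seen, 0 were called too, and in single lines the calls were HSPB1 and HSP90AB1, both lower in Ishikawa. That scaling moved the share of higher genes among those called from 63.2% to 34.7% in HEC265, from 63.6% to 42.9% in Ishikawa-S33Y, from 42.8% to 32.5% in Ishikawa, and from 58.8% to 42.7% for the mean. The chaperones' median moved to 0.14 in HEC265, -0.19 in Ishikawa-S33Y and -0.29 in Ishikawa. The share of all genes called with TMM scaling is not given here, so its calls are not a result about the chaperones alone.

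**Figure D4:**
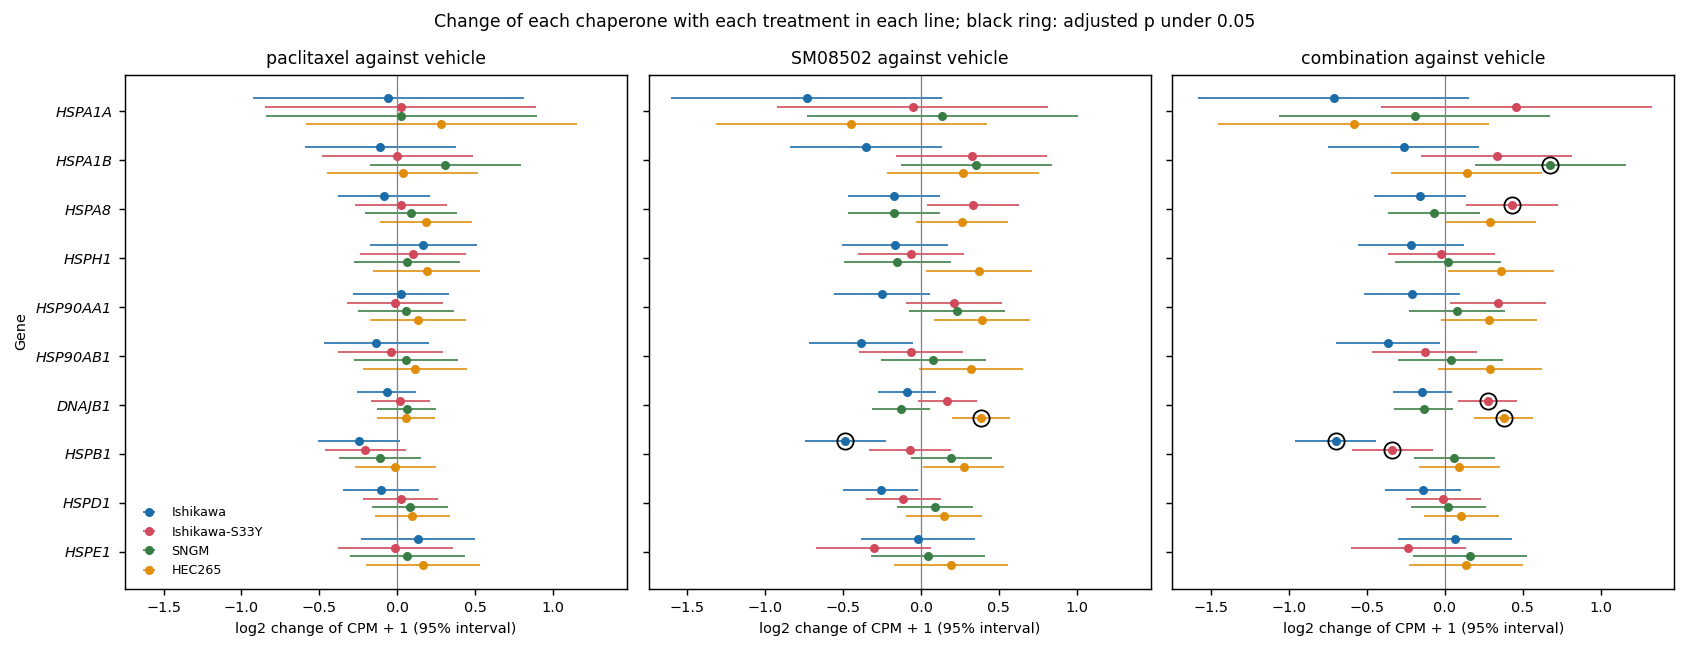
Log2 change of CPM + 1 (horizontal axis) of each chaperone (vertical axis) with each treatment against vehicle, 1 colour a line, with 95% intervals from limma and a black ring where adjusted p is under 0.05. SM08502 has 2 rings, the combination 6 and paclitaxel 0, and the Ishikawa points lie below those of HEC265 for most genes under SM08502 and the combination.

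DNAJB1 in HEC265 was 268.8 and 267.2 CPM on vehicle, 282.8 and 274.4 with paclitaxel, 341.7 and 359.9 with SM08502, and 346.3 and 350.4 with the combination. All 4 libraries with SM08502, alone or combined, lay above all 4 libraries without it. The rise was 0.39 log2 (SE 0.09, limma, adjusted p = 0.00556) with SM08502 and 0.38 (SE 0.09, adjusted p = 0.00490) with the combination. Both calls were lost with TMM scaling, at 0.26 (limma, adjusted p = 0.0834) and 0.22 (adjusted p = 0.130), the second also with median re-centring, and the first also without HEC265 vehicle replicate 2 or SM08502 replicate 2. In Ishikawa-S33Y DNAJB1 was 140.0 and 137.6 CPM on vehicle, 153.5 and 159.0 with SM08502 and 180.5 and 156.5 with the combination. The combination raised it by 0.27 (adjusted p = 0.0188), and SM08502 alone differed by 0.17 (adjusted p = 0.171). The rise with the combination was lost with TMM scaling, at 0.16 (limma, adjusted p = 0.206), and without combination replicate 1 or either vehicle replicate. In Ishikawa DNAJB1 was 192.6 and 186.1 CPM with SM08502 against 202.7 and 200.6, and in SNGM 129.4 and 144.0 against 162.3 and 137.4, and neither difference passed.

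HSPB1 in Ishikawa was 241.0 and 247.7 CPM on vehicle, 229.2 and 185.1 with paclitaxel, 192.5 and 157.5 with SM08502, and 144.8 and 155.4 with the combination. All 6 treated libraries were below both vehicle libraries. It fell by 0.49 log2 with SM08502 (SE 0.13, limma, adjusted p = 0.0120) and by 0.70 with the combination (SE 0.13, adjusted p = 5.06e-04). With the spread taken from Ishikawa alone neither passed (adjusted p = 0.174 and 0.0690), and the first was also lost without either vehicle replicate or SM08502 replicate 2. In Ishikawa-S33Y HSPB1 was 276.7 and 253.9 CPM on vehicle and 238.7 and 183.9 with the combination, a fall of 0.34 (adjusted p = 0.0350) that was lost without the shallow replicate 2 of that group (-0.15, adjusted p = 0.442), without either vehicle replicate, without the filter and with quantile normalization. In HEC265 HSPB1 was 424.0 and 398.5 CPM on vehicle and 493.5 and 501.8 with SM08502, a difference of 0.28 (adjusted p = 0.163). As the mean over 4 lines HSPB1 fell by 0.22 with the combination (SE 0.06, limma, adjusted p = 0.00594). It was the 1 chaperone called there, where 29% of all genes were higher and 20.1% lower. This mean is not a fall in every line. The combination change of HSPB1 was 0.06 in SNGM and 0.09 in HEC265 (limma, adjusted p = 0.811 and 0.711).

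For the combination against vehicle, 6 of 40 gene-by-line changes passed. Ishikawa had 0 chaperones higher and 1 lower, where 11.6% of all genes were higher and 11.2% lower. Ishikawa-S33Y had 2 higher and 1 lower, where 24% were higher and 18% lower, SNGM had 1 higher and 0 lower, where 10.8% and 7.54% were, and HEC265 had 1 higher and 0 lower, where 12.4% and 7.16% were. TMM scaling moved the share of higher genes among those called from 50.8% to 36.1% in Ishikawa, from 57.1% to 45.0% in Ishikawa-S33Y, from 59.0% to 26.0% in SNGM, from 63.3% to 35% in HEC265 and from 59.1% to 38.7% for the mean over lines. It left 4 of 40 changes called. These were HSPB1 and HSP90AB1 lower in Ishikawa, HSPB1 lower in Ishikawa-S33Y and DNAJB1 lower in SNGM (-0.32, limma, adjusted p = 0.0234). The share of all genes called lower with that scaling is not given here, so the count is not a result about the chaperones alone. HSPA8 in Ishikawa-S33Y was 1390 and 1456 CPM on vehicle, 1435 and 1461 with paclitaxel, 1750 and 1833 with SM08502, and 1888 and 1952 with the combination. All 4 libraries with SM08502 were above all 4 without it. The rise with the combination was 0.43 (SE 0.14, limma, adjusted p = 0.0182), and the change with SM08502 alone was 0.33 (adjusted p = 0.0852). The combination call was lost with TMM scaling (0.31, limma, adjusted p = 0.0961), median re-centring and no filter, without the shallow combination replicate 2 and without either vehicle replicate. HSPA1B in SNGM was 28.5 and 31.4 CPM on vehicle, 34.9 and 39.8 with paclitaxel, 38.5 and 38.4 with SM08502, and 45.3 and 51.6 with the combination. Its rise of 0.68 with the combination (SE 0.23, adjusted p = 0.0477) was lost in 33 of 45 alternatives, and the sum of HSPA1A and HSPA1B gave 0.66 (adjusted p = 0.0565).

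**Figure D5:**
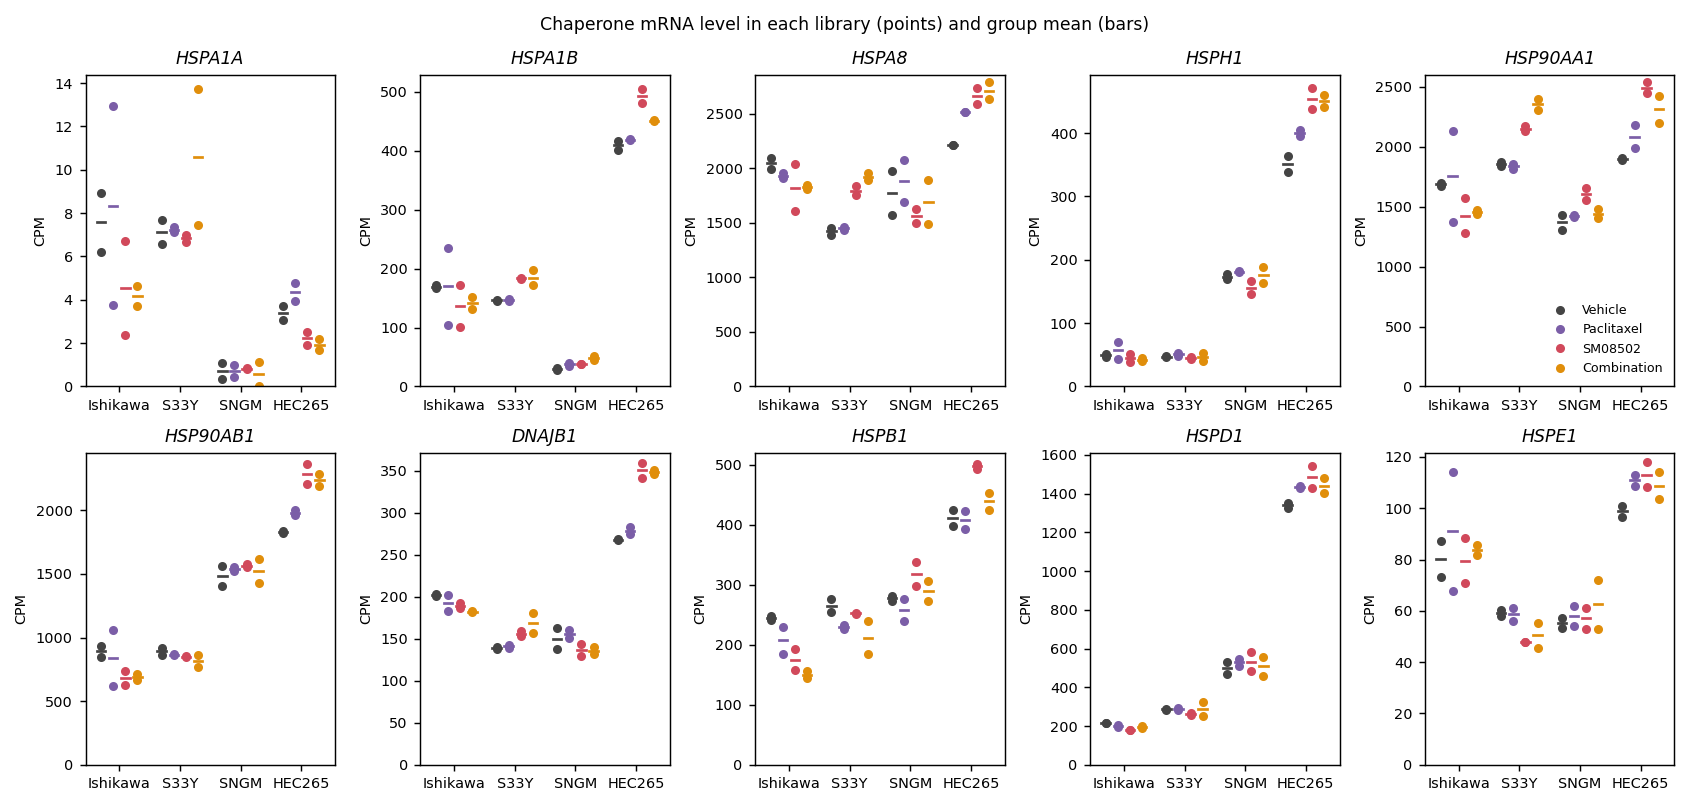
CPM (vertical axes, from 0) of each chaperone in every library (points) with the group mean (bars), by line (horizontal axes) and treatment (colour). DNAJB1 in HEC265 is higher in the SM08502 and combination libraries, and HSPB1 in Ishikawa is lower in them.

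In HEC265 most chaperones lay on 1 side of vehicle. Of 10 chaperones, 9 had both SM08502 libraries above both vehicle libraries, where 45.1% of all genes did, and HSPA1A had both below. The length score moved with the treatments in this line: it was -1.03 and -1.14 on vehicle, -1.37 and -1.5 with SM08502, and -1.55 and -1.33 with the combination, without overlap with vehicle. With this score as a covariate, 6 chaperones were called higher with SM08502 and 4 with the combination, and 0 lower. The share of all genes called in that fit is not given here, so these counts are not a result about the chaperones alone. For the combination 9 chaperones had both libraries above vehicle, where 46.2% of all genes did, and for paclitaxel 9, where 28.8% did. The HEC265 counts share the same vehicle libraries. Counts for the other lines follow. The share of all genes was not counted there, except below vehicle for the combination in Ishikawa (32.6%). These counts are therefore not set against HEC265 and are not a result about the chaperones. With SM08502, Ishikawa-S33Y had 4 above and 5 below, SNGM 3 and 1, Ishikawa 0 and 5. The combination gave Ishikawa-S33Y 4 and 2, SNGM 1 and 0, Ishikawa 0 and 9. Paclitaxel gave Ishikawa-S33Y 1 and 1, SNGM 2 and 0, Ishikawa 0 and 3. HSP90AA1 in HEC265 was 1889 and 1908 CPM on vehicle, 2179 and 1988 with paclitaxel, 2446 and 2540 with SM08502, and 2423 and 2200 with the combination. HSPH1 went from 338.4 and 363.9 CPM to 405.2 and 394.8, 438.3 and 470.9, and 460.9 and 441.3 in the same order. The changes with SM08502 were 0.39 for HSP90AA1 (adjusted p = 0.0845) and 0.37 for HSPH1 (adjusted p = 0.148). With the spread taken from HEC265 alone, 7 chaperones passed as higher with SM08502 and 0 as lower, against a background of 26.2% higher and 15.1% lower. These were DNAJB1, HSP90AA1, HSP90AB1, HSPA1B, HSPA8, HSPB1 and HSPH1. With the combination 6 were higher and HSPA1A was lower in that fit, the background being 30.4% higher and 16.8% lower. The split of calls in HEC265 moved with scaling: the share of higher genes among those called with SM08502 was 39.3% after re-centring each library on its median, and the chaperones' median was then 0.18.

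In Ishikawa-S33Y the same fit to the line alone gave 3 chaperones higher with SM08502 (HSP90AA1, HSPA1B and HSPA8) and 1 lower (HSPE1), against 25.5% higher and 14.8% lower over all genes. The combination gave 4 higher (DNAJB1, HSP90AA1, HSPA1B and HSPA8) and 1 lower (HSPB1), against a background of 29.3% and 22.4%. HSP90AA1 there was 1837 and 1876 CPM on vehicle, 2131 and 2170 with SM08502, and 2309 and 2396 with the combination, with no overlap. HSP90AB1 in contrast was 863.3 and 918.6, 855.6 and 845.6, and 865.1 and 765.3 CPM in these groups, a difference of -0.07 with SM08502 (adjusted p = 0.807). In Ishikawa that fit gave 0 chaperones for either treatment. Of 10 chaperones in Ishikawa, 9 had both combination libraries below both vehicle libraries, where 32.6% of all genes did, and HSPE1 was the exception. HSP90AB1 in Ishikawa was 936.2 and 847.4 CPM on vehicle and 713.6 and 669.0 with the combination, a change of -0.37 (adjusted p = 0.107) that passed with TMM scaling (-0.43, adjusted p = 0.0299). HSPD1 was 217.8 and 215.1 CPM on vehicle and 180.8 and 180.9 with SM08502, a change of -0.26 (adjusted p = 0.141). In SNGM, HSP90AA1 was 1430 and 1308 CPM on vehicle and 1552 and 1655 with SM08502, a difference of 0.23 (adjusted p = 0.441), the values not overlapping.

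Whether the effect differed between lines was tested over all 4 lines at once (limma F test with 3 degrees of freedom). With SM08502, DNAJB1 (adjusted p = 0.0227) and HSPB1 (adjusted p = 0.0196) differed between lines, 2 of 10 chaperones where 12.4% of all genes did. With the combination, again DNAJB1 (adjusted p = 0.00507) and HSPB1 (adjusted p = 0.00533) differed, where 27.1% of all genes did. The SM08502 tests were lost for DNAJB1 with TMM scaling and median re-centring, and without SNGM SM08502 replicate 1, either HEC265 vehicle replicate or HEC265 SM08502 replicate 2. For HSPB1 the SM08502 test was lost without Ishikawa vehicle replicate 2 or SM08502 replicate 2. Both comparisons share the vehicle libraries. The SM08502 effect in Ishikawa-S33Y minus that in Ishikawa gave 0 called chaperones (limma; TMM scaling also gave 0 called), where 2.43% of all genes were called. An unadjusted p under 0.05 (limma) was found for 3 chaperones, and for 2934 of 17011 genes tested. The difference in effect was above 0 for 9 of 10 chaperones, with a median of 0.37, against 0.11 over all genes. HSPA8 had a difference of 0.51 there (95% interval 0.09 to 0.92, adjusted p = 0.184) and HSPB1 of 0.41 (0.05 to 0.78, adjusted p = 0.224).

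Paclitaxel gave 0 of 40 called changes. In each line 0 chaperones had an unadjusted p under 0.05 (limma), and 0 were called with TMM scaling. With the spread taken from each line alone 0 were called too, and unadjusted p was under 0.05 for HSPH1 (0.0149), HSPA8 (0.0335) and HSPE1 (0.0478) in HEC265 and HSPA1B (0.0303) in SNGM, all higher (limma, adjusted p at least 0.354). The background over all genes was 0.0118% called for Ishikawa, 0% for Ishikawa-S33Y, 0.0176% for SNGM and 0.00588% for HEC265, and as the mean over 4 lines 0 chaperones and 0% of all genes were called, with HSPB1 alone under an unadjusted p of 0.05. Calls moved without Ishikawa paclitaxel replicate 1, a fit that leaves 1 library in that group. The share of all genes called in that fit is not given here, so the move is not a result about the chaperones. Adding paclitaxel to SM08502 gave 0 of 40 called changes, with 1 unadjusted p under 0.05 (limma; HSPB1 in Ishikawa-S33Y, -0.27), and 0 were called with TMM scaling. The background of called genes was 0% for Ishikawa, 0.129% for Ishikawa-S33Y, 0.253% for SNGM and 0.00588% for HEC265. For Ishikawa-S33Y, 2088 of 17011 genes tested had an unadjusted p under 0.05 (limma) in this comparison. The 95% intervals for paclitaxel were widest for HSPA1A, which had the fewest reads.

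Other genes of the heat shock and folding machinery were taken as 6 lists, and their change with SM08502 as the mean over 4 lines is given against 22.6% of all genes higher and 15.8% lower. Of 20 other genes that HSF1 is known to induce, 4 were higher and 1 lower, with a median log2 change of 0.07 against 0.05 over all genes. ZFAND2A, which binds the proteasome under arsenite stress, was 5.91 to 6.72 CPM on vehicle and 13.97 to 15.10 CPM with SM08502 in the 2 libraries each of HEC265, with no overlap. Its mean change was 0.64 (SE 0.09, limma, adjusted p = 1.19e-05). DEDD2 (0.58) and HSPA4, an HSP110 relative (0.44, adjusted p = 2.32e-06), also rose, and HSPA4 was called in all 4 lines. BAG3, a cofactor of HSP70 in autophagy and a sensitive HSF1 target, changed by 0.06 (SE 0.14, adjusted p = 0.769). HSPA6, an HSP70 made only under strong stress, was listed at 0 in the vehicle and SM08502 libraries of SNGM and HEC265 and at no more than 7.40 CPM in those of the other lines. Of the 4 heat shock factors and their regulators 1 was higher, HSBP1, which dissociates HSF1 trimers (0.41, adjusted p = 1.95e-04), and HSF1 itself changed by 0.06 (adjusted p = 0.665).

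Of 14 cochaperones of HSP70 and HSP90, 2 were higher and 1 lower with SM08502 as the mean over lines. SUGT1, an HSP90 cofactor of the kinetochore, rose by 0.63 (SE 0.06, limma, adjusted p = 1.79e-07) and was called in all 4 lines, DNAJA2 rose by 0.33, and ST13, which steadies HSP70, fell by 0.26. Of 14 chaperones of the endoplasmic reticulum 0 were higher and 7 lower, with a median of -0.15. HSP90B1, the reticulum's HSP90, was 674.5 to 730.4 CPM in the vehicle libraries of Ishikawa and 364.2 to 500.0 CPM with SM08502, without overlap. Its mean change was -0.73 (SE 0.10, adjusted p = 5.15e-06), and CRELD2 fell by 0.82, HYOU1 by 0.34 and HSPA5, the reticulum's HSP70, by 0.31. Of 7 mitochondrial chaperones and proteases 4 were higher and 1 lower: HSPA9, the mitochondrial HSP70, rose by 0.36, GRPEL1 rose by 0.23, and TRAP1, the mitochondrial HSP90, fell by 0.47. Of 8 subunits of the cytosolic chaperonin TRiC 4 were higher and 1 lower, with CCT3 rising by 0.23, TCP1 by 0.19 and CCT7 falling by 0.27; the TCP1 call was lost after median re-centring and with TMM scaling. With paclitaxel 0 genes of the 6 lists were called as the mean over lines. Cell type markers moved as well with SM08502 as the mean over lines: 4 of 6 epithelial markers were lower, 1 of 4 stromal markers tested was lower (COL1A1, -0.96), 1 of 3 immune markers tested was higher (CD68, 1.03) and 0 of 2 endothelial markers were called. COL1A1 and CD68 were named after their values were seen, and the part of these markers in the results was not tested.

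The pattern of the chaperones over the 16 groups, after removal of each line's mean, was set beside those of 10423 genes with a mean log2 level of at least 3, as a description over group means that share libraries. The nearest gene outside the 10 was EHMT2 for HSPB1 (Pearson r 0.97), RIPK4 for HSP90AB1 (0.96), DUSP8 for HSP90AA1 (0.94) and FAM43A for HSPA1B (0.93). It was HEATR5B for HSPE1 (0.91), SREK1 for HSPH1 (0.91) and KLF3 for HSPA1A (0.91). Among the chaperones themselves, HSPA8 and DNAJB1 were the closest (r 0.85), followed by HSP90AB1 and HSPB1 (0.82). HSPA8 and HSPE1 were the least alike (-0.38). Between pairs of chaperones r thus ranged from -0.38 to 0.85. Each group mean holds 2 libraries, and the part of the spread between replicates in a low r was not tested. The r of a nearest outside gene is the highest over a large set, so it is not to be compared with those among the 10.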

How the data were processed

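The deposited values are log10(CPM + 1), as the values themselves show, for 35238 genes; CPM are reads per 1000000 counted. The submitters' processing notes name bcl2fastq, kallisto, STAR and GRCh38 without roles; the annotation and strand of counting are not given in the sources used here. Per the labels' protocols, ribosomal RNA was depleted and KAPA mRNA HyperPrep libraries were sequenced on a NovaSeq 6000. Whole reads were recovered for 100% of the deposited log10 values (tolerance 0.01). Values were taken back to CPM. Genes above 1 CPM in at least 2 libraries were kept, and limma 3.58.1 (R 4.3.3) was fitted to log2(CPM + 1) with 1 mean for each of 16 groups, an intensity trend, 16 residual and 4.90 prior degrees of freedom. Tests were two-sided and adjusted over 17011 genes; this scale understates changes of low genes. The fit was first tested on simulated data. Alternatives added after seeing the data rescaled the recovered reads by TMM, with limma or its voom. Groups come from the labels. The 10 genes, the lists, the naming rule (each list's 3 largest called mean SM08502 changes, plus BAG3, HSPA6, HSF1 and HSPA5) and the tests were chosen with earlier results of these data known. Sequences and positions are RefSeq's, and all 10 symbols matched. The nearest genes in pattern to HSPA8, DNAJB1 and HSPD1 are not reported here.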

Additional observations from a re-analysis of the deposited data

Results flagged for a closer look

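The effect of treatment differed between the 4 lines, by the limma F test over 17011 genes, for 2 chaperones. Of all genes, 12.4% differed between lines with SM08502 and 27.1% with the combination, so such a difference is not particular to the chaperones. For DNAJB1 the adjusted p was 0.0227 with SM08502 and 0.00507 with the combination, with changes of 0.39 and 0.38 in HEC265 and -0.09 and -0.14 in Ishikawa. The DNAJB1 test with SM08502 was lost with TMM scaling, voom and median re-centring. For HSPB1 the adjusted p was 0.0196 with SM08502 and 0.00533 with the combination, with changes of -0.49 and -0.70 in Ishikawa and 0.28 and 0.09 in HEC265. The length score and the spread between replicates also differed between these lines, and their part in the difference was not tested.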

How the results depend on the processing

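With SM08502, 2 of 40 changes were called; this became 5 with quantile normalization, 11 with each line's samples alone, 8 with array weights by line and 11 with the length score as covariate, and 1 to 6 when leaving out each replicate. For the combination, 6 became 3 without the filter, 13 with each line alone, 12 with array weights, 13 with the length score, 3 in voom on recovered reads and 3 without the 2 shallow libraries (2 to 10 leaving out each replicate). Paclitaxel gave 0 to 2 leaving out each replicate. Mean SM08502 calls went from 0 to 1 (quantile) and 2 (length score), with 0 to 1 leaving out each replicate. Mean combination calls went from 1 to 2 with quantile normalization, the replicate block, array weights, TMM scaling or without the shallow libraries, and to 3 with the length score and voom (1 to 2 leaving out each replicate). The SM08502 F test went from 2 to 1 with median re-centring and TMM scaling, 4 with array weights and 7 with the length score (1 to 5 leaving out each replicate). The combination F test went from 2 to 4 (quantile), 5 (array weights), 4 (voom) and 7 (length score), and 2 to 6 leaving out each replicate. The Ishikawa-S33Y minus Ishikawa SM08502 effect went from 0 to 1 (quantile) and 2 (length score). The highest counts leaving out a replicate came without Ishikawa paclitaxel replicate 1. The 38 vehicle differences ranged from 35 to 44. HSPE1 in SNGM minus Ishikawa reversed to 0.55, and minus Ishikawa-S33Y to 0.39, with the length score. Of 300 values, 68 were called, and 48 kept their side in every alternative run. Median re-centring moved the all-gene median of HEC265 minus Ishikawa-S33Y on vehicle from -0.08 to 0.11. The share of all genes called moved with the setting too, so a change in these counts is not a result about the chaperones alone. With SM08502 in HEC265, 9.27% of all genes were called higher in the main fit and 26.2% with that line alone. Causes were not tested beyond the construction of each alternative.

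Same-numbered replicates did not deviate together in every pair of groups, so the numbers were not taken to pair them: their deviations correlated at -0.48 to 0.83 in Ishikawa (0.33 to 0.83 among its treated groups), -0.06 to 0.09 in Ishikawa-S33Y, -0.57 to 0.70 in SNGM and -0.08 to 0.21 in HEC265. With the replicate block 2 of 40 SM08502 changes, 6 of 40 combination changes and 40 of 60 vehicle differences were called, 2 chaperones in the SM08502 F test and 3 in the combination F test. The planned negative binomial test of recovered reads is not reported, because the deposited unit is a log scale; TMM scaling with limma or voom, chosen after seeing the data, stands in its place. A fit to the compared lines alone was not run for means and F tests. Depth limits HSPA1A in the shallow libraries.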
